A study of Homo sapiens with 2 samples.

Results

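The genes described here encode chaperones and folding enzymes of the endoplasmic reticulum (ER), and they are 10 genes named for a common role, by a rule that sets no threshold on their values but was written with earlier results of these data known. They are HSPA5, HYOU1, DNAJB9, DNAJB11, DNAJC3, HSP90B1, CALR, CANX, PDIA4, and PDIA6. Their RefSeq transcripts were matched to 12 of the 50599 array probes that are not controls, and the 10 genes are part of 23752 genes and transcripts without a gene name that were measured, meaning that a probe of theirs exceeded background clearly on 1 array or both. All 10 were well above background on both arrays, so that no ratio of theirs rests on a bound. CANX and HSP90B1 had 2 probes each, and the other 8 genes had 1.

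HepG2, an established human hepatocellular carcinoma cell line, was treated for 24 h with hawk tea extract (HTE), an ethanol extract of the leaves dissolved in dimethyl sulfoxide (DMSO), or with DMSO at 1‰ as the control. The dose is 200 μg/mL HTE in the sample labels, and 300 μg/mL in the text of the study and in the name of the HTE array. RNA of each condition was hybridised to 1 single-colour (Cy3) array. With 1 array per condition no test between the conditions was possible, no p value is given, the spread between cultures is unknown, and every difference compares these 2 arrays only. An effect of HTE and any other difference between the 2 cultures or hybridisations cannot be told apart. In bulk RNA, fewer cells with a transcript and less of it per cell cannot be told apart either.

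Proteins that enter the secretory pathway fold in the ER with the help of these chaperones. HSPA5 (BiP, GRP78) is the Hsp70 of the ER. It binds unfolded chains, and it holds the stress sensors ERN1 (IRE1), EIF2AK3 (PERK), and ATF6 inactive until unfolded proteins draw it away. The unfolded protein response that follows raises the transcription of chaperone genes through ATF6 and spliced XBP1, many of them through the ER stress response element (ERSE), a CCAAT box and a CCACG sequence held 9 bases apart. Hepatocytes, which secrete most plasma proteins, carry a heavy folding load.

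The start regions of 5 of the genes are shown because they differ both in exact matches to this element and in their ratio between the arrays. HSPA5 had the largest decrease and HSP90B1 almost none, and both hold an ERSE. HYOU1 holds the related ERSE-II. PDIA4 and DNAJB9, with the second largest decrease and the single increase, hold no exact match of either. Each line gives the 250 bases before the RefSeq start site (build GRCh38.p14), 5′ to 3′ on the strand of the gene, with exact ERSE or ERSE-II matches on either strand in capitals. The windows lie at chr9:125241344-125241593 (minus strand) for HSPA5, chr12:103930160-103930409 (plus strand) for HSP90B1, chr11:119057206-119057455 (minus strand) for HYOU1, chr7:149028491-149028740 (minus strand) for the first of 2 start sites of PDIA4, and chr7:108569624-108569873 (plus strand) for DNAJB9.
HSPA5: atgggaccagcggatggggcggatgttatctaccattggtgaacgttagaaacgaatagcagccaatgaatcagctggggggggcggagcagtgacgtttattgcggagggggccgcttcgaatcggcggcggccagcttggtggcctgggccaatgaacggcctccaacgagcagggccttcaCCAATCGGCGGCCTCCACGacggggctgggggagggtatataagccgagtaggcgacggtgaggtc
HSP90B1: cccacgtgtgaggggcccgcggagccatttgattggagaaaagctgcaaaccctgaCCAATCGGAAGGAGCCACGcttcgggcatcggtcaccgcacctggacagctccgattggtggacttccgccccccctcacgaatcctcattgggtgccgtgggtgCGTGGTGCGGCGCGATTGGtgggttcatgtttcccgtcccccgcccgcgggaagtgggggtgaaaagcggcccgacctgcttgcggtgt
HYOU1: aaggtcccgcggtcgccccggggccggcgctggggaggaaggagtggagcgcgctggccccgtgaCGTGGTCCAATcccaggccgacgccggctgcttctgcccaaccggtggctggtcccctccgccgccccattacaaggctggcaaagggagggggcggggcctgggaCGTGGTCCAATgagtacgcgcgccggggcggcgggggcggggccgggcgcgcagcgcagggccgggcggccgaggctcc
PDIA4: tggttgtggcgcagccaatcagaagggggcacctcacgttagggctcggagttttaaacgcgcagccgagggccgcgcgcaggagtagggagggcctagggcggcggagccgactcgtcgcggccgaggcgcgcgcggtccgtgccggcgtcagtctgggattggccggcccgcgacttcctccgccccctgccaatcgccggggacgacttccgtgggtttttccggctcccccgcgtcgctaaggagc
DNAJB9: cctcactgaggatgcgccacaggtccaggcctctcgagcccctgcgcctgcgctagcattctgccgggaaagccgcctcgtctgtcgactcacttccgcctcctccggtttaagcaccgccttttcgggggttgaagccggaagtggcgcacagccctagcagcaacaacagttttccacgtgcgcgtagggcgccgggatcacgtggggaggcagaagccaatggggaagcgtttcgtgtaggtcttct

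On the HTE array HSPA5 stood at 48.9% of its level on the DMSO array, a log2 ratio of -1.03, whereas DNAJB9, one of its J-domain partners, was 1.43-fold higher (log2 ratio of 0.52, and -0.57 with the arrays scaled to the E1A spike-in probes). The other 8 genes had log2 ratios between -0.45 (PDIA4) and -0.0044 (HSP90B1). HSPA5 was thus the only one of the 10 that was at least 2-fold lower, against 3.03% of all genes measured, and no other member was at least 1.5-fold lower, against 10.5%. None of the 10 was at least 2-fold or 1.5-fold higher, against 5.25% and 12.4% of all genes. A ratio below 0 was found for 9 of the 10, against 49.0% of all genes, of which a further 1272 have a ratio of 0 set by a bound. The 9 include PDIA6 (-0.0058) and HSP90B1 (-0.0044), whose sign changed under some alternatives. The median over the 10 was -0.14 (-0.11 without HSPA5), and 0.00 over all genes.

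All ratios are differences of log2 processed signals after the 75th percentile of each array was subtracted, which was 4020.0 on the DMSO array and 3570.3 on the HTE array. The error of a ratio can be judged in 3 ways, none of which holds the variation between cultures. The scanner software gives an error for each spot, and combined over both arrays it was 0.20 to 0.21 on the log2 scale for the 12 probes, each of which has a single spot. Replicate spots of 688 other probes had a median SD of 0.051 in their log2 ratios, and different probes of a gene one of 0.16 over 3759 genes. Measured by the software's error, HSPA5 lay 5.04 errors from 0, DNAJB9 2.53, and PDIA4 2.19. DNAJC3 and CANX lay 1.36 and 1.08 errors from 0, and the other 5 genes less than 1.

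On the DMSO array 60.6% of the spots that are not controls were well above background, and 56.6% were on the HTE array. The label of the cells was checked against markers. All 10 hepatocyte markers (among them ALB, APOA1, and HNF4A) were well above background on both arrays. Of the markers of other cell types, 5 of 6 leukocyte, 2 of 4 endothelial, and 3 of 6 fibroblast and stellate markers were well above background on both arrays. The summed processed signals of these 3 lists went from 9734.2 to 8603.4, from 1045.6 to 347.0, and from 21463.6 to 21104.4, against 765513.3 and 742615.7 for the hepatocyte markers, and their part in the results was not tested.

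**Figure D1:**
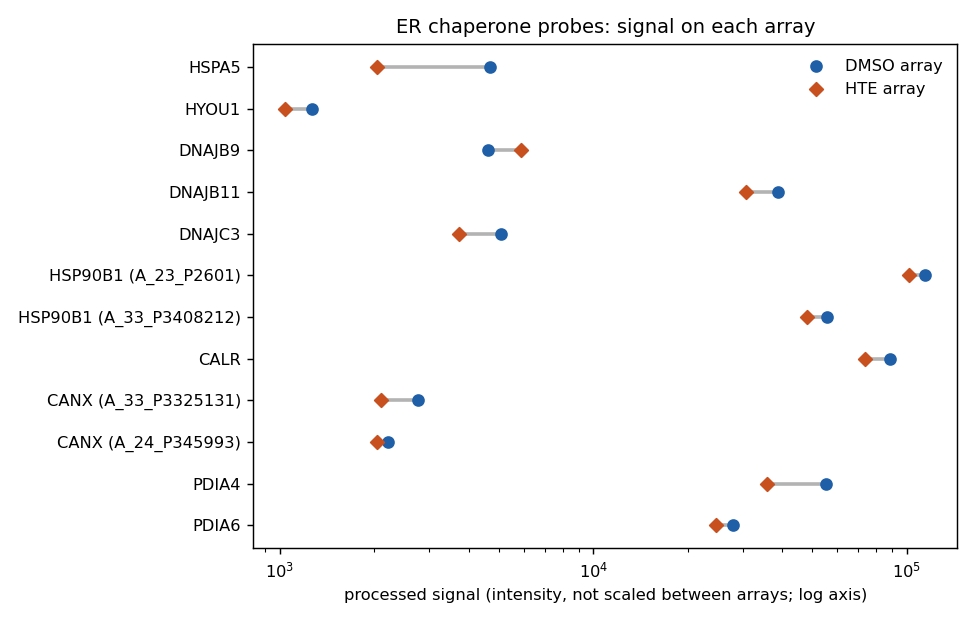
Processed signal of each of the 12 probes on the DMSO array (circles) and the HTE array (diamonds), on a log axis and before scaling between the arrays. The HTE point lies to the left for every gene except DNAJB9, and the widest gap is that of HSPA5, from 4689.0 to 2037.9.

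The first group is HSPA5 with its nucleotide exchange factor and its J-domain partners. The processed signal of HSPA5 was 4689.0 on the DMSO array and 2037.9 on the HTE array. Its log2 level relative to the 75th percentile therefore went from 0.22 to -0.81, 2.04-fold lower and just past the 2-fold cutoff. The raw signals before background subtraction were 4737.0 and 2040.5, over local backgrounds of 37.0 and 35.0, so background made up little of either value. Only 662 of the 23752 genes (2.79%) had a ratio as low or lower. HSPA5 stayed at least 2-fold lower under all 12 alternatives tried, but not all of these could move it. Its value rests on 1 probe with 1 spot on each array. The 3 filters on dim probes, outlier spots kept, the mean over probes, and NM_ probes only therefore left it at -1.03 by design. With the others it lay between -2.12 (spike-in scaling) and -1.05 (normexp background correction).

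HYOU1 (GRP170) is a large relative of Hsp70 that exchanges the nucleotide of HSPA5. Its signal was 1270.1 on the DMSO array and 1042.8 on the HTE array. The log2 ratio was -0.11, within the software's error of 0.21.

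DNAJB9 (ERdj4) is a J-domain protein that stimulates the ATPase of HSPA5, promotes the degradation of misfolded chains, and keeps HSPA5 on the sensor ERN1. Its signal was 4632.6 on the DMSO array and 5887.0 on the HTE array, a log2 ratio of 0.52. Of all genes, 14.4% had a ratio as high or higher. The log2 ratio lay between 0.35 and 0.53 under 11 alternatives, and below 0 only with spike-in scaling. DNAJB9 also has 1 probe with 1 spot, so the alternatives that could not move HSPA5 could not move it either. The difference between the log2 ratios of DNAJB9 and HSPA5 was 1.55, a value that no scaling by a constant can change.

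DNAJB11 (ERdj3) is a J-domain protein that binds unfolded chains together with HSPA5. Its signal was 38725.1 on the DMSO array and 30769.9 on the HTE array, and the log2 ratio of -0.16 was within the software's error of 0.20.

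DNAJC3 (p58IPK) is a J-domain cochaperone of HSPA5 that is also known as an inhibitor of eIF2α kinases. It went from 5075.3 to 3719.4, a log2 ratio of -0.28, and stayed below 0 under all 12 alternatives (-0.25 at the highest). The same alternatives as for HSPA5 could not move this ratio. The 4 partners of HSPA5 thus lay from -0.28 to 0.52, all above HSPA5 itself.

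**Figure D2:**
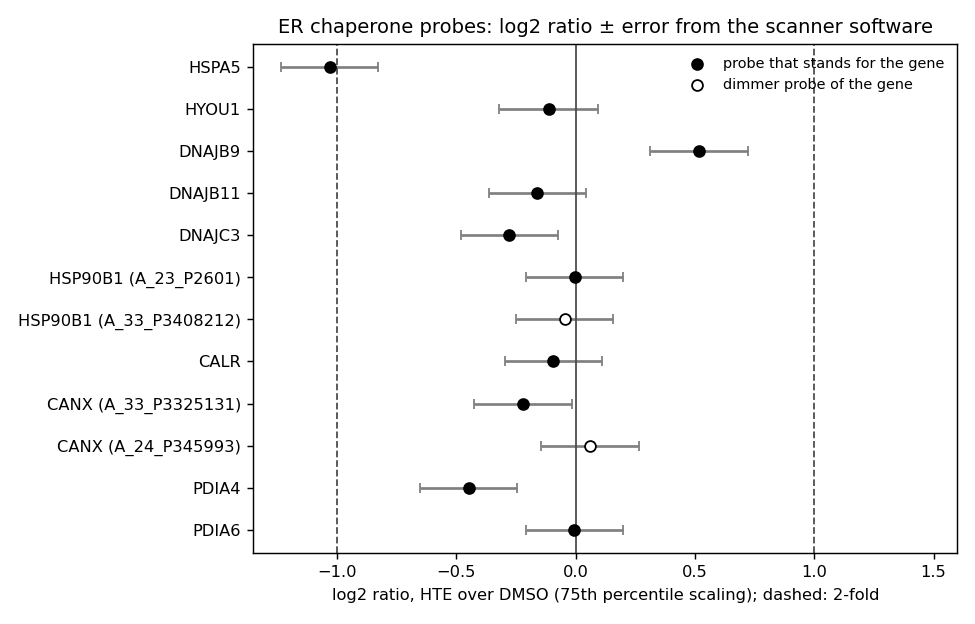
Log2 ratio of HTE over DMSO for each of the 12 probes after scaling to the 75th percentile, where bars show the software's error of the ratio and dashed lines mark 2-fold. HSPA5 (-1.03) stands apart on the left and DNAJB9 (0.52) on the right, and the bars of HYOU1, DNAJB11, HSP90B1, CALR, PDIA6, and the dimmer CANX probe cross 0.

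HSP90B1 (GRP94) is the Hsp90 of the ER, which folds receptors and integrins and is commonly induced along with HSPA5. Its 2 probes had signals of 114702.9 and 55702.5 on the DMSO array, and of 101557.8 and 47941.9 on the HTE array. The log2 ratios were -0.0044 and -0.045, with an SD of 0.029 between the probes. The ratio of HSP90B1 was 1.03 above that of HSPA5, and it turned slightly positive (0.027) when the median of the neighbouring spots was subtracted.

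CALR and CANX are the lectin chaperones of the ER, one soluble and one bound to the membrane, which hold newly made glycoproteins through a glucose on their sugar chains. CALR had a signal of 88641.3 on the DMSO array and 73774.8 on the HTE array, a log2 ratio of -0.094. Its neighbouring spots had a median log2 ratio 0.22 above that of the array, the highest among the 12 probes, and subtracting it moved CALR to -0.32. The brighter probe of CANX went from 2765.7 to 2107.8 (log2 ratio of -0.22), and the dimmer probe from 2207.9 to 2043.0 (0.059). The 2 probes of CANX thus lay on either side of 0, with an SD of 0.20, and their mean was -0.081.

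PDIA4 (ERp72) and PDIA6 (P5) are protein disulfide isomerases, which make and rearrange the disulfide bonds of client proteins. PDIA4 went from 55051.2 to 35848.3, a log2 ratio of -0.45 or 1.36-fold lower, and lay between -0.62 and -0.42 under the alternatives other than spike-in scaling (-1.54). Of all genes, 15.7% had a ratio as low or lower. PDIA6 went from 27895.2 to 24675.6, and its log2 ratio of -0.0058 changed sign with normexp background correction (0.013) and with quantile normalization (0.038). The log2 ratios of the isomerases differed by 0.44.

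In the order of their ratios, HSPA5 was followed by PDIA4, DNAJC3, CANX, DNAJB11, HYOU1, CALR, PDIA6, HSP90B1, and DNAJB9. HSPA5 lay 0.58 below PDIA4, against a software error of 0.29 for such a gap. DNAJB9 lay 0.52 above HSP90B1, and each of the 7 gaps in between was at most 0.17 and within the error of 0.29. The order of neighbours among those 8 genes is therefore not resolved by these arrays. Genes further apart in the order can differ by more than that error, as PDIA4 and PDIA6 did (0.44).

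**Figure D3:**
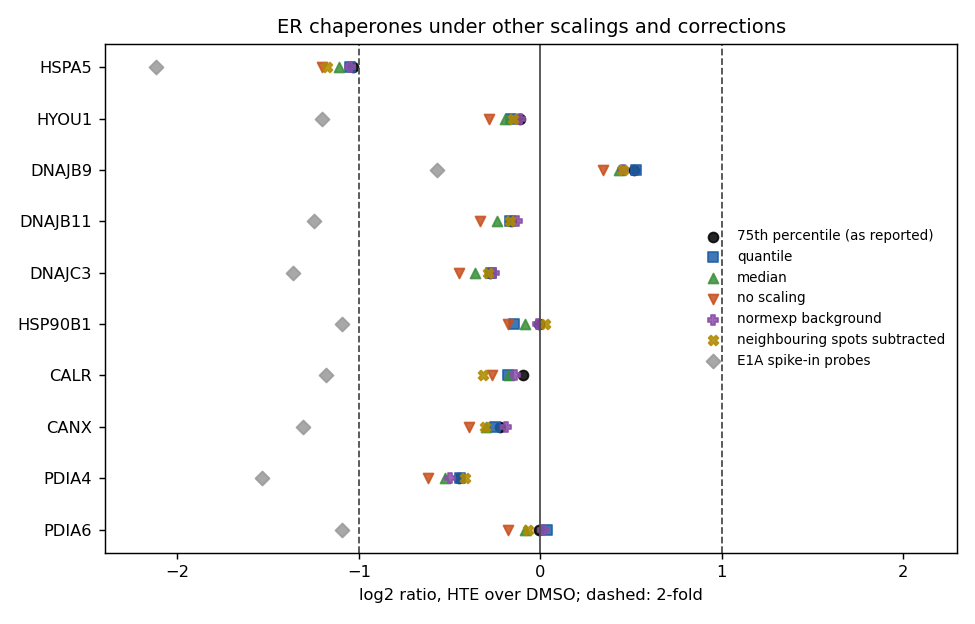
Log2 ratio of HTE over DMSO for each gene with the scaling as reported, under the 4 other scalings, and with 2 corrections for background and position, where dashed lines mark 2-fold. HSPA5 lies past 2-fold to the left with each of the 7 settings drawn, and spike-in scaling moves each gene down by 1.09, which takes DNAJB9 below 0.

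What the 10 genes share beyond their role was looked for in their RefSeq start windows (250 bases before to 50 after the start, 15 windows in all), by exact matches on both strands. The ERSE, searched as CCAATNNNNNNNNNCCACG, was found in windows of 5 of the 10 genes (HSPA5, HSP90B1, CALR, CANX, and PDIA6), 7 of 15 windows, and in 27 of all 35116 windows (0.077%). HSP90B1 held 2 matches, beginning 194 and 89 bases before the start, and HSPA5 held 1, 66 bases before it. The 3 windows of CANX with an ERSE overlap one another and hold the same match. ERSE-II, searched as ATTGGNCCACG, was found only in HYOU1 among the 10 genes, 185 and 79 bases before the start, and in 19 of all windows (0.054%). The unfolded protein response element core TGACGTGG was also found only in HYOU1, where it overlaps the first ERSE-II match, and in 0.729% of all windows. A CCAAT box, which is part of each ERSE and ERSE-II match, was found in windows of all 10 genes, 14 of 15 windows against 34.6% of all windows. Neither the ATF4-C/EBP element TGATGCAA (0.866% of all windows) nor the cyclic AMP response element TGACGTCA (1.85%) matched a window of the 10 genes. A match describes the letters in the window only, and forms of an element that differ by a base were not searched for.

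The 5 genes with an ERSE had log2 ratios of -1.03 (HSPA5), -0.22 (CANX), -0.094 (CALR), -0.0058 (PDIA6), and -0.0044 (HSP90B1). HYOU1, with 2 ERSE-II matches, had -0.11. The 4 genes without an exact match of either element, DNAJB9, PDIA4, DNAJC3, and DNAJB11, had 0.52, -0.45, -0.28, and -0.16. The ranges of the genes with and without these exact matches overlapped. Of all measured genes, 15 held an ERSE, among them 10 that are not members, and 12 of the 15 had a ratio below 0, 80.0% against 48.1% of the 12092 named genes with a start window, and with a median of -0.094 against 0.00. The 5 members are all counted among these 12, so the share and the median partly repeat the members' own ratios. Those of CALR, PDIA6, and HSP90B1 lay within the software's error of 0. HSPA5 was the only one past 2-fold, against 2.56% of those genes that were at least 2-fold lower. CRELD2 (-0.78) and SYNPO (-0.74) were also at least 1.5-fold lower, which makes 3 of 15, against 1067 of the 12092. ERSE-II was held by 16 measured genes, of which 8 were below 0, with a median of -0.057. SHCBP1 (-1.77) was at least 2-fold lower and lay below HSPA5, RAD9A (-0.89) and GYS1 (-0.60) were at least 1.5-fold lower, and NUCB1 (0.67) was at least 1.5-fold higher. SYNPO and the 4 genes named for ERSE-II were chosen after their values were seen.

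**Figure D4:**
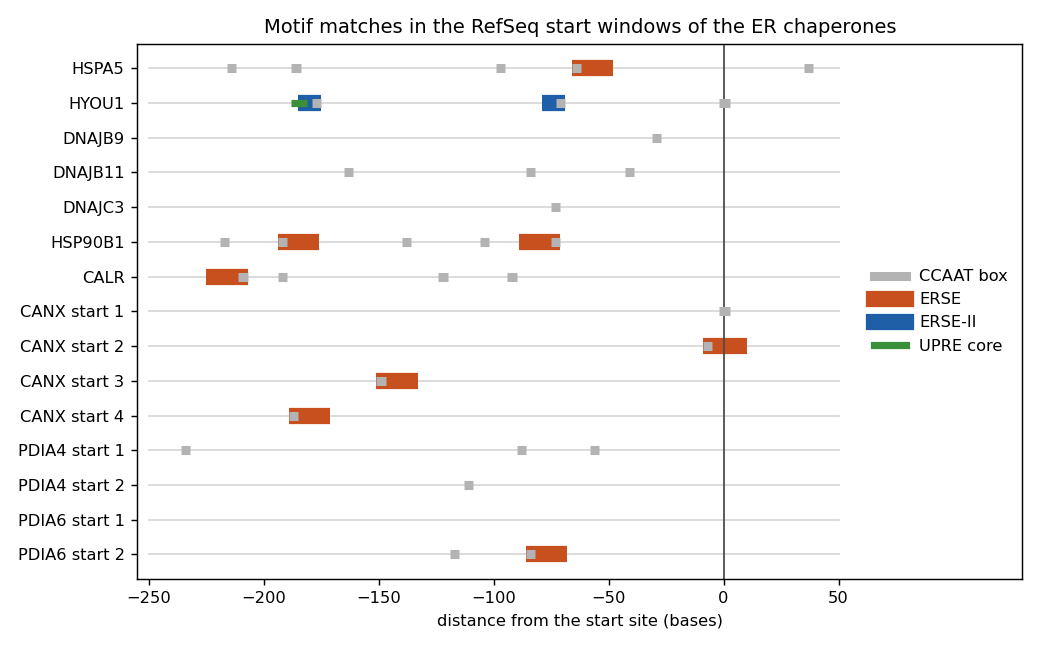
Exact motif matches in the 15 RefSeq start windows of the 10 genes, drawn by their distance from the start site in bases, with 1 row per window. ERSE matches lie in windows of HSPA5, HSP90B1, CALR, CANX, and PDIA6, the 2 ERSE-II matches in HYOU1, and CCAAT boxes in windows of all 10 genes.

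Upstream of the chaperones, 16 genes of the sensors and transcription factors of the unfolded protein response were taken, all measured, with a median log2 ratio of 0.020. At least 2-fold higher were 2 of them, DDIT3 (CHOP, the stress-induced factor linked to cell death), which went from a signal of 14952.7 to 31394.0 (log2 ratio of 1.24), and CREB3L3 (CREB-H, an ER-bound factor of hepatocytes), from 19011.7 to 43684.4 (1.37). None was at least 2-fold lower. The shares over all genes were 5.25% at least 2-fold higher and 3.03% at least 2-fold lower. The sensors EIF2AK3 and ATF6 had log2 ratios of 0.19 and 0.17, and ERN1 was well above background on the DMSO array only, with a bound of 0.00. ATF6B, a relative of ATF6, had -0.10.

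XBP1, whose spliced messenger codes for an activator of chaperone genes, had a log2 ratio of -0.23, and the arrays do not tell its spliced form apart. ATF4, the factor translated when eIF2α is phosphorylated, went from 65509.9 to 89473.2 (0.62), and CREB3, another ER-bound factor, had 0.60. With spike-in scaling ATF4 and CREB3 had -0.47 and -0.49, and DDIT3 and CREB3L3 had 0.15 and 0.28. The proteases that release ATF6, MBTPS1 and MBTPS2, had -0.043 and 0.33. CREB3L2 had -0.49, and -0.10 at its other probe. Of the factors that bind the ERSE with ATF6, NFYB (-0.72) and NFYA (-0.66, and -0.91 at its dimmer probe) were at least 1.5-fold lower, whereas YY1 had -0.0095. These were the only 2 of the 16 genes at least 1.5-fold lower, against 10.5% of all genes. At least 1.5-fold higher were 4 (DDIT3, CREB3L3, ATF4, and CREB3), against 12.4%. The brightest of 4 probes of NFYC had 0.039, and the other 3 had -0.31, 0.31, and 0.43, so that NFYC has no settled direction.

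**Figure D5:**
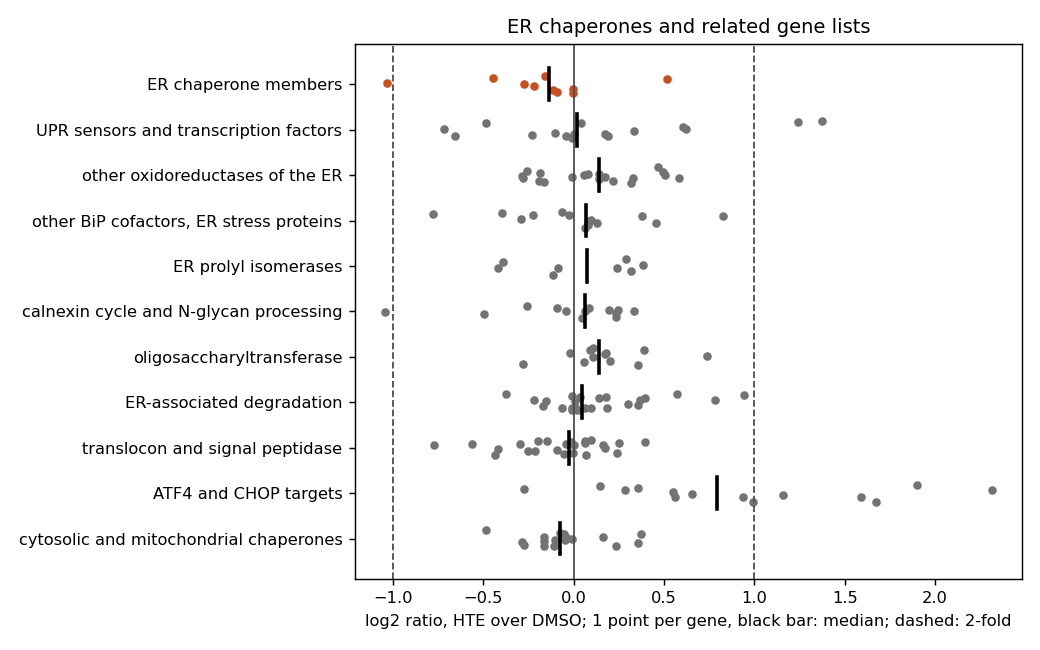
Log2 ratio of HTE over DMSO for each measured gene of the ER chaperones and of 10 related lists, with the median of each list as a black bar and 2-fold as dashed lines. The chaperones have a median of -0.14, the ATF4 and CHOP targets of 0.79, and the other lists lie between -0.075 and 0.14.

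Other genes that work in the ER were compared by 7 further lists, of which 114 of 116 genes were measured. Their median log2 ratio was 0.062, and 46 of the 114 were below 0, against 49.0% of all genes. At the brightest probe 1 was at least 2-fold lower and none at least 2-fold higher, against 3.03% and 5.25% of all genes. A dimmer probe of QSOX1 had a log2 ratio of 1.18. The gene at least 2-fold lower was MLEC (-1.04), malectin, which binds glucosylated sugar chains in the ER, and its ratio was the only one of the 114 lower than that of HSPA5. The other oxidoreductases had a median of 0.14 over 19 genes, from TMX2 (-0.29) to PDIA2 (0.58). The other cofactors of HSPA5 and ER stress proteins had a median of 0.071 over 14 genes, from CRELD2 (-0.78), a stress-induced secreted factor, to CDNF (0.82). The prolyl isomerases had 0.077 over 8 genes, from FKBP14 (-0.42) to PPIC (0.38).

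The calnexin cycle and N-glycan processing list had a median of 0.061 over 13 genes, from MLEC to PRKCSH (0.34). The oligosaccharyltransferase list, the complex that adds the sugar chains, had 0.14 over 12 genes, from STT3B (-0.28) to TUSC3 (0.74). ER-associated degradation had 0.048 over 24 genes, from UBE2G2 (-0.37) to SELENOS (0.94). The translocon and signal peptidase list had -0.028 over 24 genes, from TRAM2 (-0.77) to TRAM1 (0.40). Without scaling, which lowers ratios that rest on no bound by 0.17 and the median of all genes by 0.16, 7 of the 10 medians of related lists changed sign, and with spike-in scaling all 10 were below 0.

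The chaperones were set beside the lists of 2 other stress programs. In the list of 14 targets of ATF4 and CHOP the median log2 ratio was 0.79, 13 were above 0, and 5 were at least 2-fold higher (5.25% of all genes were), whereas 1 was below 0 (ATF5, -0.27). The 5 were CHAC1 (2.32), ATF3 (1.90), PPP1R15A (1.67), SESN2 (1.59), and NUPR1 (1.16). Other probes of ATF3 had ratios of 0.35 and 1.61, and a probe of it that was dim on the HTE array had a bound of -0.095. With spike-in scaling the median of this list was -0.29. The list of 17 genes of cytosolic and mitochondrial chaperones and cochaperones, which also counts a heat shock transcription factor, had a median of -0.075. None of the 17 was past 1.5-fold in either direction at its brightest probe. The range was from STIP1 (-0.49, and -0.24 at its other probe) to HSPB1 (0.37, and 0.24 and 0.81 at its other probes). Over all genes, 10.5% were at least 1.5-fold lower and 12.4% at least 1.5-fold higher. The medians of the ER chaperones and of the list of 17 genes were thus 0.14 and 0.075 below that of all genes, and no test of either difference was possible.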

How the data were processed

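Cy3-labelled RNA of HepG2 cells, 1 array per condition, was measured on Agilent SurePrint G3 human arrays. The authors deposited the Feature Extraction output (version 11.5.1.1 in the file headers, 10.7 in the submitters' processing notes), whose intensity values are the processed signals, background-subtracted, detrended, and not scaled between arrays. The deposited flags used are those for outlier spots and for spots well above background. Other columns used include the software's error, the median signal, and the local background of each spot. Here, outlier spots were left out, log2 was taken, the 75th percentile of each array was subtracted, and a probe's value was the mean of its spots. Probes passed the filter if a share of 0.5 or more of their spots exceeded background clearly on 1 array or both, and one dim on the other array entered with a bound. Probes were named through RefSeq accessions in the gene table of GRCh38.p14 (28146 of 50599), and the brightest probe stood for a gene.

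The number of arrays limits the precision. The 2-fold cutoff is that of the methods. The members and gene lists were chosen with earlier results of these data known. The genes named in the text are the members, the measured sensors and factors of the unfolded protein response, and the largest rise and fall and each gene past 2-fold of the other lists. A few more are named for a start-window motif, a bound, or a dimmer probe. Alternatives were normexp background correction (offset 50, limma 3.58.1 in R 4.3.3, on the median signal of a spot), 4 other scalings, 3 filters on dim probes, outlier spots kept, the mean over probes, NM_ probes only, and the median of spots within 5 rows and columns subtracted. A simulation compared the DMSO array with a copy of itself that carried added noise of 0.1 on the log2 scale. In that copy 200 of 23309 genes were shifted by 1.5, and all 200 were recovered with no other gene past 2-fold. The noise was below the software's error of 0.20 to 0.21 for the members, and the shift lay well past the cutoff. The run therefore checks the calculation only, and it cannot judge a ratio near the cutoff, such as that of HSPA5 (-1.03). Scripts ran in Python 3.11.15 (numpy 2.4.6, pandas 2.3.3), with figures drawn in matplotlib 3.10.9.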

Additional observations from a re-analysis of the deposited data

How the results depend on the processing

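The median log2 ratio of the 10 ER chaperones was -0.22 with scaling to the median, -0.31 without scaling, -1.22 with spike-in scaling, and -0.23 with neighbouring spots subtracted, and the other 8 alternatives left it within the SD among replicate spots. Of the 10, 8 were below 0 with normexp background correction, with quantile normalization, and with neighbouring spots subtracted. All 10 were below 0 with spike-in scaling, and 9 under the other alternatives. Without scaling 2 genes, HSPA5 and PDIA4, were at least 1.5-fold lower. With spike-in scaling, which lowers the median of all genes by 1.08, 9 of the 10 were at least 2-fold lower and 9 at least 1.5-fold lower. Relative to the median of all genes, HSPA5 lay between -1.24 and -0.998 and DNAJB9 between 0.31 and 0.55 under the 12 alternatives. At the lowest cutoff tried, which lies below 1.36-fold, 2 genes (HSPA5 and PDIA4) were lower. Spike-in scaling reversed the median of the ATF4 and CHOP targets (-0.29). The all-gene counts at 2-fold, 720 lower and 1248 higher, became 13564 and 171 with spike-in scaling, 468 and 825 with normexp background correction, 1868 and 2390 without a filter on dim probes, and 397 and 701 with NM_ probes only. Counts of lower genes were 1209 without scaling and 1320 with the own value of dim probes. Higher genes made up 63.4% of those past 2-fold, but 42.2% without scaling and 1.24% with spike-in scaling. The causes were not tested. No paired analysis was possible because each condition has only 1 array. Signal over background does not limit the 12 probes, whose raw signals were at least 1110.5 over local backgrounds of at most 42.0.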
